A study of Homo sapiens with 26 samples.

Results

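The S100 calcium-binding protein family is represented here by 8 genes, taken by name from the deposited count files: S100a1, S100a4, S100a6, S100a10, S100a11, S100a13, S100a16 and S100b. They are 8 of 55353 gene rows in the files of input RNA, where rows carry mouse-style symbols, and 8 of 56638 rows in the files of gradient fractions, where rows carry human symbols. The files list 18 and 21 S100 rows in all. The members were chosen by their measured response: the family was picked because its rows were thought to differ in direction with salubrinal, with the input ratios and the 80S result of S100A13 already known. Those values are therefore a description and support nothing. No difference in direction was seen among them in the input. Each of the 5 members with at least 200 input counts had a ratio above 0, as had 54.7% of all 6851 such rows. The ratios of these members differed in size only.

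S100 proteins are small proteins with a pair of EF-hands, the helix-loop-helix motifs that bind calcium. Most form dimers, and calcium opens a surface through which the dimer holds a target protein, among them annexins, cytoskeletal proteins and p53. Most S100 genes lie side by side on the long arm of chromosome 1, while S100B lies on chromosome 21. S100B is used in the clinic as a marker of melanoma and of cells of neural crest origin, and S100A4 and S100A6 are known for higher levels in many invasive tumours.

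RNA came from SK-MEL-28, an established human melanoma line, kept in salubrinal for 72 h or left untreated. Salubrinal blocks the removal of phosphate from the translation factor eIF2α and so switches on the integrated stress response (ISR), and the study asked which RNAs ribosomes hold when that response is active. Of 26 samples, 13 were treated and 13 were not: 1 input RNA per treatment, and 3 replicates per treatment of each of 4 fractions (40S, 60S, 80S and polysome) collected from a sucrose gradient of 5 to 20% after 12 min in cycloheximide at 100 µg/mL. Every title names SK-MEL-28, although the cell-line field holds a different numbered name for each sample, and nothing in the labels says that replicates were separate cultures, so the p-values reflect variation among the samples as deposited, which may be technical. The melanocytic identity was visible in the input, where 11 of 13 melanocytic marker rows had at least 200 counts over both libraries. Their summed level, in counts scaled to library size (CPM), was 1455 with salubrinal and 2987 without. The marker rows of fibroblasts, keratinocytes, immune and endothelial cells summed to 1.06 to 6.20 CPM per list in each library, with Col1a1, Pdgfrb, Fap, Krt1, Trp63, Dsg3, Cd3e, Cd79a and Cdh5 at 0 in both, and the melanocytic row Mlana was also at 0 in both. Row names of the input are given as the files print them. Which reference lies behind them could not be read from the labels or headers. A row with few or no counts may therefore say little of the human gene. How far the counts of the other rows, and the shares between rows, depend on the reference was not tested.

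The input files held 10245548 counts on gene rows with salubrinal and 12068784 without. The fraction files held 361480 to 693970, of which rows of ribosomal RNA (rRNA), 5S-like pseudogenes included, took 93.5 to 99.9%. Outside rRNA rows 873 to 23714 counts per file remained. There the 4 fraction files grouped as one replicate differed by no more than sampling noise (chi-square per degree of freedom 0.936 to 1.03 in 6 sets, smallest Benjamini-Hochberg p = 0.537), while the 3 replicates within a fraction gave 1.57 to 8.15. The sets were formed with the 40S files of control replicates 1 and 2 exchanged, because their counts matched the files of the other number. As titled, these files held 5705 and 21295 counts outside rRNA, against 21903 and 5760 in the 60S files of the same numbers. For these 2 control sets the agreement is therefore partly built in, and the sets as titled were not compared in this way. The S100 counts are therefore given by file and also with the 4 files of a replicate summed into 1 library, 3 libraries per treatment.

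The promoter sequences of the members that the results turn on are shown here for the features they share and those in which they differ. The RefSeq table of the build GRCh38.p14 holds 7 of the 8 members and lacks S100B. Each sequence gives the 250 bases before an annotated start site, 5′ to 3′ on the strand of the gene. Capitals mark every match, on either strand, to 7 motifs. These were the ATF4 element CARE (TGATGNAA), the AP-1 site (TGANTCA), the antioxidant element ARE (TGACNNNGC), the M-box bound by MITF (CATGTG), the E-box (CACGTG), the GC box (GGGCGG) and the TATA box (TATAAA).
S100A6, chr1:153535992-153536241, minus strand: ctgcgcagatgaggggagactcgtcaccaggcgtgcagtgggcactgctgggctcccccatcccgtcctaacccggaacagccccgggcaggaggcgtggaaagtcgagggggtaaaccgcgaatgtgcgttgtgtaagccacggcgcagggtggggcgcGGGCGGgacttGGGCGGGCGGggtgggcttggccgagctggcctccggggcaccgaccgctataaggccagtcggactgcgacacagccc
S100A10, chr1:151993860-151994109, minus strand: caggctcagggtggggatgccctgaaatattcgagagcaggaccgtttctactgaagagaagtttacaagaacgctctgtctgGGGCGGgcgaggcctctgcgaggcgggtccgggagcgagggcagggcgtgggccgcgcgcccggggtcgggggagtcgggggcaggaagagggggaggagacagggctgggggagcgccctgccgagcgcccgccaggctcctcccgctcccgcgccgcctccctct
S100A13, first start site, chr1:153634362-153634611, minus strand: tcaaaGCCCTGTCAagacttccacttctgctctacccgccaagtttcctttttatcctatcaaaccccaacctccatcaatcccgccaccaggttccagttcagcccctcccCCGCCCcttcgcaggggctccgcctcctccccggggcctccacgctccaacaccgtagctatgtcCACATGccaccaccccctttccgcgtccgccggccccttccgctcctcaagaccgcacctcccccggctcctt
S100A13, second start site, chr1:153627506-153627755, minus strand: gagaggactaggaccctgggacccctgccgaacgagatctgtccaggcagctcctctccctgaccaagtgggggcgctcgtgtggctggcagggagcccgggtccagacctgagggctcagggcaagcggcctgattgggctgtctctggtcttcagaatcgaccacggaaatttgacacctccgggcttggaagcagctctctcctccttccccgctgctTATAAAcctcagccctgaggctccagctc
S100A1, chr1:153628184-153628433, plus strand: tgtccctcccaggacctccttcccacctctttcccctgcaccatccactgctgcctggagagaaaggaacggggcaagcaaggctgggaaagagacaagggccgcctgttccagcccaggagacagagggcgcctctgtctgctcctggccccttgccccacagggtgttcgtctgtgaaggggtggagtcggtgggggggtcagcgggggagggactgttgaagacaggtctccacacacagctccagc

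The S100A6 sequence held 3 GC boxes, from base -90 to base -70 relative to the start site, the pair nearest to it overlapping, and a GC content of 70.0%. The S100A10 sequence held 1 GC box, from -167 to -162. Of all 35116 promoter entries in the table, 42.6% held a GC box in the same window. The first S100A13 sequence held an ARE match from -245 to -237, a GC box from -138 to -133 and an M-box match from -73 to -68, and the second a TATA box from -29 to -24. An ARE match was found in 10.9% of all entries, an M-box match in 9.42% and a TATA box in 10.7%. The S100A1 sequence matched none of the 7. None of the 10 entries of the members held a CARE, AP-1 or E-box match, which 3.14, 6.57 and 6.34% of all entries held. These matches describe letters in the windows and are not binding sites.

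The first start site of S100A13 lies 295 bases from that of CHTOP, which codes for a chromatin and mRNA export protein and runs the other way. The second lies 929 bases and the third 1195 bases from the start of S100A1, which also runs the other way. S100A1 lies wholly inside the span of S100A13 and on the opposite strand, an arrangement that bears on the fraction counts below.

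In the input, S100a6 stood well above the other members in its difference between the libraries. S100a6 encodes calcyclin, a growth-regulated S100 protein that binds the adaptor CACYBP and several annexins. It had 2208 counts with salubrinal and 281 without, or 156 and 32.3 CPM after scaling by trimmed means of M-values (TMM). The log2 ratio was 2.26 (95% interval 2.09 to 2.45), or 4.80-fold. Only 4 of the 6851 rows with at least 200 counts over both libraries had a higher ratio. With 1 library per treatment there is no test, and intervals here are exact conditional binomial ones that cover counting error only. In bulk RNA, more cells that express a gene and more RNA per cell cannot be told apart.

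S100a13 and S100a1, whose human genes overlap, had nearly the same ratio. S100A13 is known for carrying FGF1 and interleukin 1α, which lack a signal peptide, out of the cell. Its row had 362 counts with salubrinal and 114 without, or 25.5 and 13.1 CPM, a log2 ratio of 0.95 (0.65 to 1.28). S100A1 regulates calcium handling in muscle and is also made by melanocytic cells. Its row had 477 and 164 counts, or 33.6 and 18.8 CPM, and a log2 ratio of 0.83 (0.58 to 1.10). Both were higher with salubrinal by less than 2-fold.

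S100a10 and S100b were the most even members between the libraries. S100A10, also called p11, does not need calcium and pairs with annexin A2 at the plasma membrane. Its row had 897 and 439 counts, or 63.2 and 50.4 CPM, and a log2 ratio of 0.33 (0.16 to 0.49). S100b had 991 and 546 counts, or 69.8 and 62.7 CPM, and a log2 ratio of 0.15 (0.0030 to 0.31), so that its interval reached almost to 0.

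The other 3 members were too sparse to describe by a ratio. S100a16, a broadly expressed member, had 9 counts with salubrinal and 2 without, with an interval from -0.81 to 4.71 on the log2 scale. S100a4, the metastasis-linked member, and S100a11, a partner of annexin A1, had 0 counts in both libraries. A row named S100a11-ps held 287 and 106 counts, a log2 ratio of 0.72 (0.41 to 1.07). Whether its reads come from human S100A11 was not tested. S100pbp, for a binding protein of S100P that is not itself of the family, held 156 and 66 counts, a log2 ratio of 0.53. Of the 10 S100 rows of the input that are not members, S100a3 had 2 counts with salubrinal and the rest had 0 in both libraries.

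**Figure D1:**
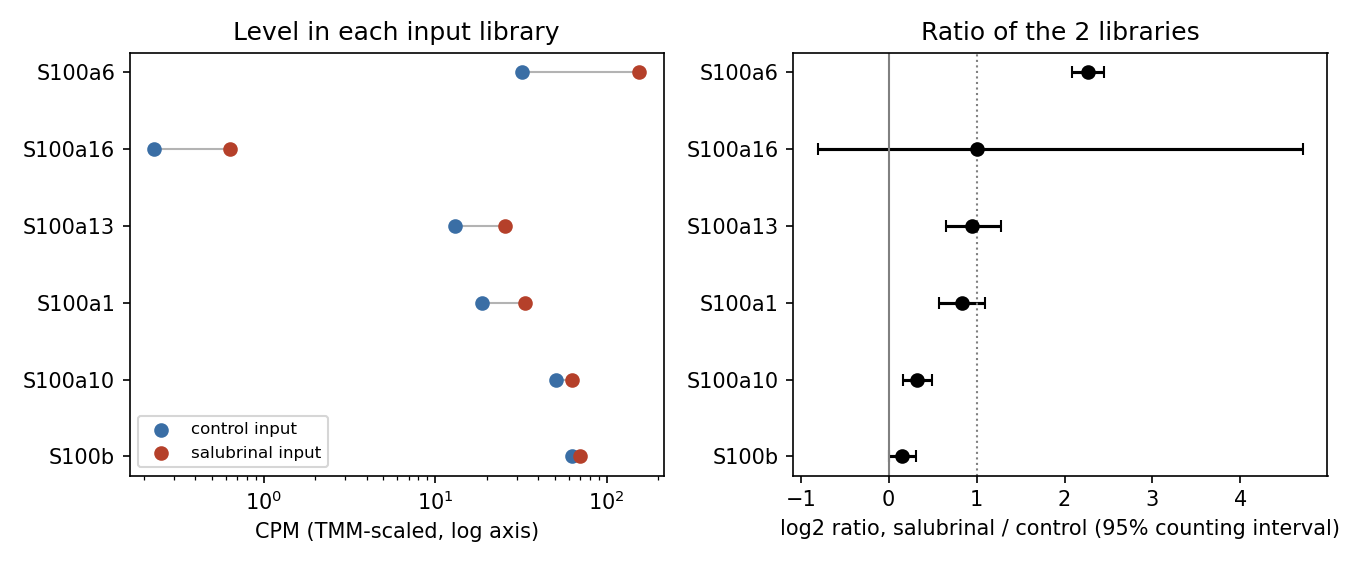
Left, TMM-scaled CPM of 6 members in the control and the salubrinal input (log axis). Right, the log2 ratio of the libraries with its 95% counting interval, with lines at 0 and at 1 (2-fold). S100a6 sits at 2.26, S100a13 and S100a1 sit at 0.95 and 0.83, S100a10 and S100b at 0.33 and 0.15, and S100a16 has a wide interval from 11 counts.

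Of the 5 members with at least 200 counts, 5 had a ratio above 0 and 1, S100a6, was at least 2-fold higher. S100a13, at 0.95, was the member closest to the 2-fold limit (1 on the log2 scale) and did not reach it, while S100a6, at 2.26, lay well past it. Among all 6851 such rows, 54.7% had a ratio above 0, 2.06% lay 2-fold or more above 0 change and 2.48% that far below it. The median ratio was 0.83 for the 5 members and 0.05 for all rows. The row CT010467.1 held 12.8% of the salubrinal and 56.7% of the control gene counts. When libraries were scaled by their totals instead of TMM, the median over all rows shifted by 0.93 and the member ratios shifted with it.

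The make-up of the S100 counts does not depend on the scaling. All S100 rows together held 4946 counts with salubrinal and 1546 without. S100a6 made up 44.6% of them with salubrinal (95% binomial interval 43.3 to 46.0) and 18.2% without (16.3 to 20.2). S100b made up 20.0% with salubrinal and 35.3% without, and S100a10 made up 18.1 and 28.4%, with intervals that did not overlap. S100a1 made up 9.64% with salubrinal and 10.6% without, and S100a13 made up 7.32 and 7.37%, with intervals that overlapped. In the control input S100b was the row with the most counts of the family, and in the salubrinal input S100a6 was. Since a row's count also depends on the length of the transcript, the order within a library is not an order of expression.

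**Figure D2:**
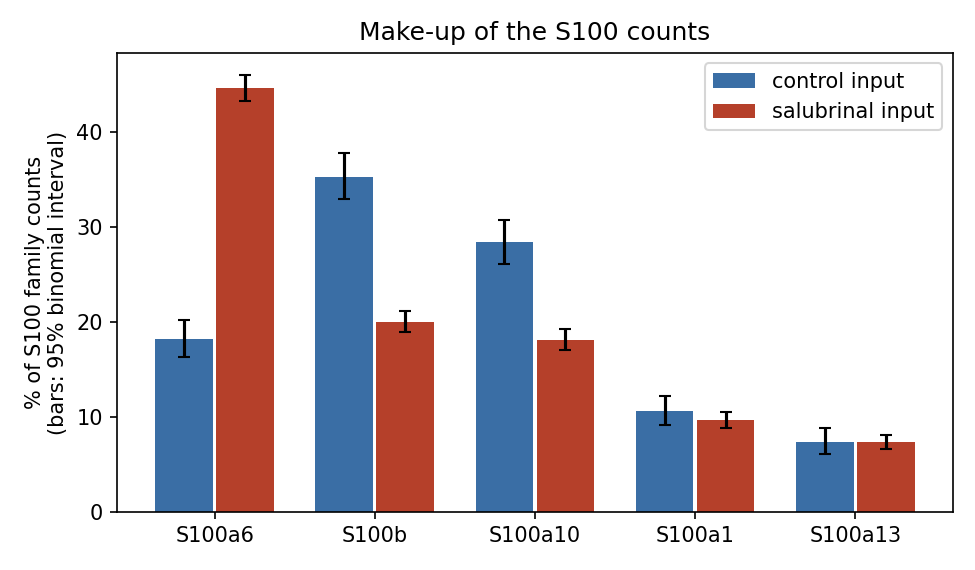
Share of all S100 counts held by each of 5 members in the control (blue) and the salubrinal (red) input, in percent, with 95% binomial intervals. The S100a6 share is 18.2% in the control and 44.6% in the salubrinal input, the shares of S100b and S100a10 are lower with salubrinal, and those of S100a1 and S100a13 are close to each other in both.

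Since the family was picked for unequal ratios, the differences between its members are given as a description of this pair of libraries. For 8 of the 10 pairs among the 5 members, the counting interval of the difference left out 0. S100a6 differed from S100b by 2.11 on the log2 scale (1.88 to 2.35), with 2.23 counts of S100a6 per count of S100b under salubrinal against 0.515 in the control. It differed from S100a13, the member nearest to it, by 1.31 (0.94 to 1.67). The pairs whose intervals included 0 were S100a13 and S100a1, at 0.13 (-0.28 to 0.54), and S100a10 and S100b, at 0.17 (-0.06 to 0.40). Without S100a6 the family's summed counts had a log2 ratio of 0.41 (0.31 to 0.51), against 0.97 (0.89 to 1.06) with it.

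The 5 melanocytic marker rows named here, of 13 on the list, had lower ratios than S100b and S100a1. Pmel, the melanosome scaffold gene, stood at -1.02 on the log2 scale, and the lineage factor genes Mitf and Sox10 at -1.01 and -1.46. Dct, a melanin synthesis gene, stood at -2.37 and Tyr, which codes for tyrosinase, at -0.04. S100b and S100a1 stood above all 5 in these libraries, at 0.15 and 0.83, though Tyr lay close to S100b. Ratios of the other rows on the list are not given. What part the marker ratios have in those of the S100 rows was not tested.

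The genes around the family were taken from lists written with earlier results of these data known. Among all 6851 rows with at least 200 counts, 54.7% had a ratio above 0 and the median was 0.05. Of 7 annexins with at least 200 counts, 3 had a ratio above 0 and none was 2-fold apart in either direction, with a median of -0.12. Anxa2, the partner of S100A10, was highest at 0.65 (0.60 to 0.71) and Anxa1, the partner of S100A11, stood at 0.63 (0.50 to 0.78). Anxa4 stood at -0.15 and Anxa11, a partner of S100A6, at -0.94 (-1.18 to -0.71). Anxa2 had a higher ratio than S100a10, and their counting intervals did not overlap.

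Of 21 other S100 partner genes with at least 200 counts, 9 had a ratio above 0 (42.9%, against 54.7% of all such rows). Their median was -0.03. The highest were Capza1, for an actin capping subunit, at 0.46 and Ppfibp1, for the S100A4-binding protein liprin β, at 0.41. The lowest were Smarca4, for a chromatin remodelling ATPase, at -0.95 and Myh10, for a nonmuscle myosin heavy chain, at -0.61. Of 32 other EF-hand genes, 18 had a ratio above 0 and the median was 0.14, with Cetn2, for a centrosome protein, at 0.82, Micu2, for a regulator of mitochondrial calcium uptake, at 0.77, and Rcn3 and Efhd2 both lowest at -0.60 and -0.61. None of these 53 rows was 2-fold apart.

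The last list holds genes that flank the S100 cluster on the chromosome. Of 12 with at least 200 counts, 5 had a ratio above 0 (41.7%, against 54.7% of all 6851 such rows). The median was -0.10, against 0.05 for all such rows. Rps27, for a ribosomal protein, was highest at 0.96, followed by Tdrkh at 0.51, and Ints3, for a subunit of the Integrator complex, was lowest at -0.92, below Crtc2 at -0.61. None reached 2-fold in either direction, and S100a6 lay above every row of these 4 lists.

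**Figure D3:**
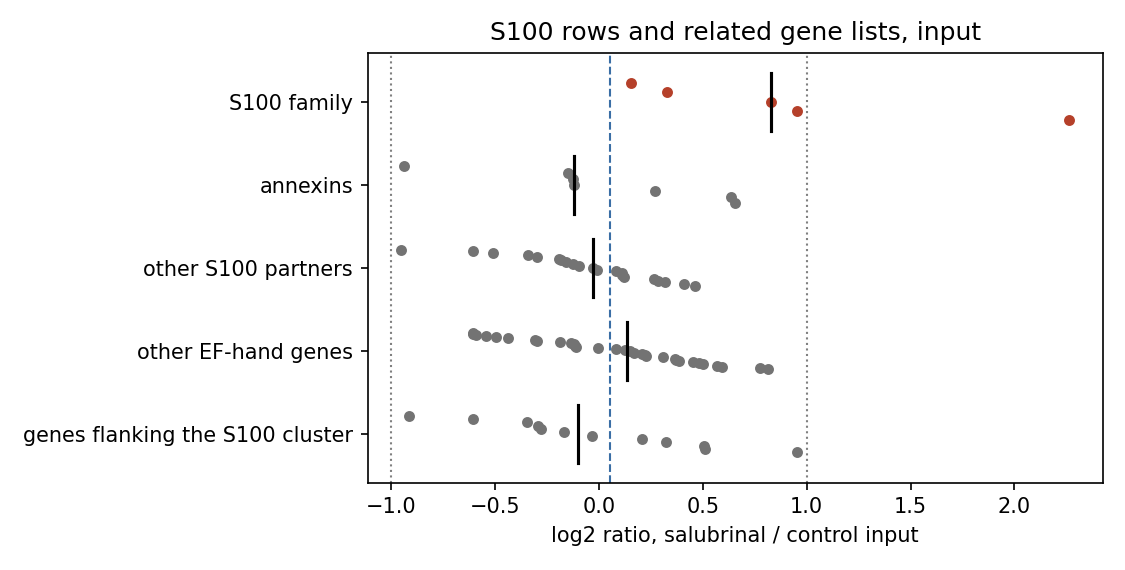
Log2 ratio of salubrinal over control input for each row with at least 200 counts, by list. Black bars are list medians, the dashed line is the median of all such rows (0.05) and the dotted lines mark 2-fold. S100a6 at 2.26 is the only point past 2-fold, and the medians of the other lists lie between -0.12 and 0.14.

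In the fraction files nearly all S100 counts fell on the S100A13 row. It held 259 counts over the 24 files, 0 to 31 per file. S100A1 held 16, S100B 6 and S100A6 1, and the other 4 members held 0, as did every S100 row that is not a member. S100A13 was the only S100 row with enough counts to be tested.

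The balance between the overlapping rows S100A13 and S100A1 differed between the kinds of file. S100A13 held 94.2% of their summed counts in the fraction files (95% exact interval 90.7 to 96.6), but 43.1% (39.8 to 46.6) of them in the treated and 41.0% (35.2 to 47.0) in the control library of the input. Rows carry mouse-style symbols in the input and human symbols in the fractions, so these shares may not be comparable. The libraries were made with a stranded kit, and the strand setting of the counting was not stated. S100A13 and S100A1 lie on opposite strands, so which gene gave the reads on the S100A13 row was not tested, and S100A13 names the row below. CHTOP, which overlaps S100A13 in part, held 3 counts. S100PBP held 4.

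On the S100A13 row the treated and control files held almost equal numbers of reads, 131 and 128, but the treated files held fewer counts outside rRNA. With the 4 files of a replicate summed, the salubrinal libraries had 19, 4 and 108 counts on the row, out of 10158, 3768 and 73598 outside rRNA, or 0.187, 0.106 and 0.147%. The control libraries had 47, 10 and 71, out of 86473, 22640 and 93743, or 0.0544, 0.0442 and 0.0757%. Every salubrinal library lay above every control library, which held for 4.18% of the 909 tested rows outside rRNA. The mean share was 0.147% ± 0.0404 with salubrinal and 0.0581% ± 0.0161 without (SD, n = 3; two-sided exact permutation p = 0.1, the smallest that 3 against 3 can give). Depth differed strongly: the 95% interval of salubrinal replicate 2, from 4 counts, ran from 0.0289 to 0.272% and reached into the control range, while that of salubrinal replicate 3, 0.120 to 0.177%, lay above the 3 control intervals.

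The edgeR quasi-likelihood test on the summed libraries, fitted on 913 rows, gave S100A13 a log2 fold change of 1.53 ± 0.36 (SE; Benjamini-Hochberg adjusted p = 0.00116), from 7.44 ± 1.80 CPM in the controls to 22.5 ± 7.39 CPM with salubrinal (SD, n = 3). S100A13 was 1 of 52 rows that passed, 5.7% of those tested (3.61% higher and 2.08% lower with salubrinal), and 18 of those that passed had a higher fold change. The 80S result was known when the family was chosen and the summed counts include those files, so this test is no independent support. The call was lost without control replicate 1 (1.40, adjusted p = 0.125) and without salubrinal replicate 3 (1.66, adjusted p = 0.0560), and with library sizes alone, in which rRNA sets the scale, the fold change was 0.091 (adjusted p = 0.978). TMM factors ran from 0.0908 in salubrinal replicate 2 to 5.19 in control replicate 3.

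**Figure D4:**
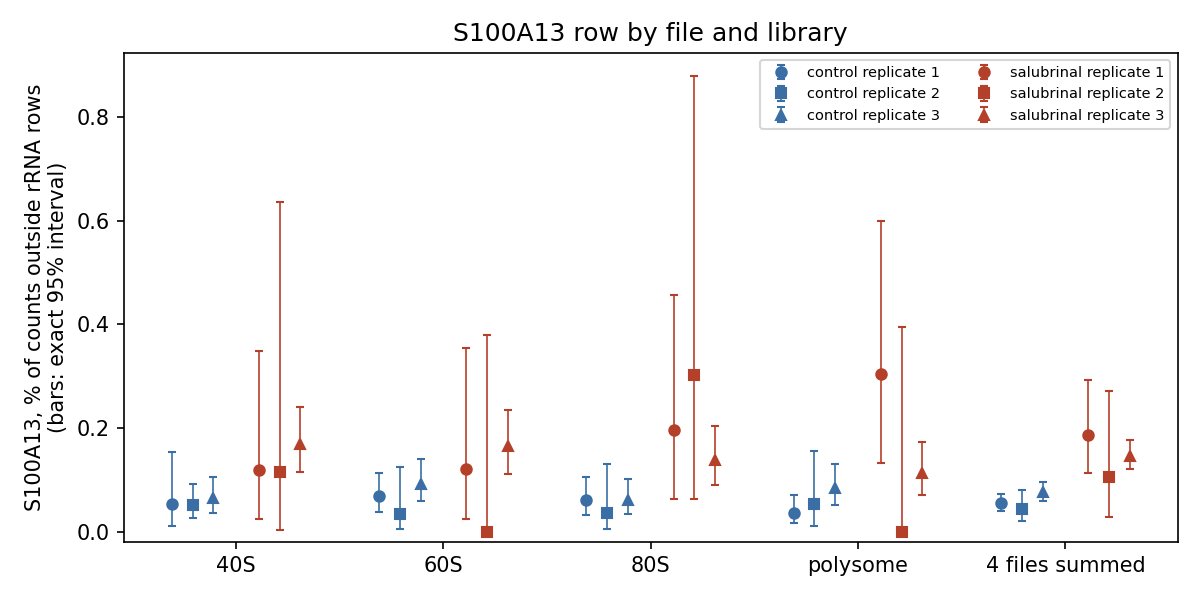
S100A13 counts as a percentage of all counts outside rRNA rows, for each of the 24 fraction files (replicates as titled) and for the 4 files of a replicate summed (with the 40S files of control replicates 1 and 2 exchanged). Bars are exact 95% intervals for counting error. Salubrinal libraries (red) lie above the controls (blue) in the 40S, 80S and summed sets, and salubrinal replicate 2 is at 0 in the 60S and polysome files.

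In the 80S files, the fraction of single ribosomes, the salubrinal libraries had 5, 3 and 25 counts on the S100A13 row, or 0.196, 0.302 and 0.139% of counts outside rRNA. The control libraries had 13, 2 and 14, or 0.0612, 0.0362 and 0.0604%. The groups did not overlap, which held in this direction for 8.1% of tested rows. The log2 fold change was 1.47 ± 0.40 (SE; edgeR adjusted p = 0.00571), and 27 of 213 rows passed, 12.7% (7.51% higher and 5.16% lower). The call was lost without salubrinal replicate 1 or 3 (adjusted p = 0.0679 and 0.186) and without control replicate 1, 2 or 3 (0.194, 0.0736 and 0.224), at fold changes of 1.45 to 1.96 on the log2 scale.

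In the polysome files, which hold mRNAs with several ribosomes, the salubrinal libraries had 8, 0 and 21 counts, or 0.304, 0 and 0.114%. The 0 of 931 counts in replicate 2 allows a share of up to 0.322% by the limit of 3 counts (the exact 95% interval, drawn in the plot of shares by file, ends at 0.395%), so this file could not show a difference of the size seen in the others. The control libraries had 8, 3 and 20 counts, or 0.0363, 0.0531 and 0.0849%. The groups overlapped through salubrinal replicate 2 alone, and 5.04% of tested rows had groups apart in this direction. The log2 fold change of 1.21 ± 0.44 did not pass (edgeR adjusted p = 0.0807), where 9 of 241 rows, 3.73%, passed (2.49% higher and 1.24% lower). It passed with a stricter low-count filter (1.29, adjusted p = 0.0475) and without mitochondrial and small RNA rows (1.26, adjusted p = 0.0429). It also passed without salubrinal replicate 2 (1.30, adjusted p = 0.0289). It did not pass under the other 12 alternatives, among them DESeq2 (adjusted p = 0.998), edgeR with no filter (0.5996), the joint fit (0.162), and edgeR without salubrinal replicate 1 (0.458) or control replicate 1 (0.758). The joint fit counts all fraction files as separate samples, so its adjusted p cannot decide a call.

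In the 60S files, the salubrinal libraries had 3, 0 and 31 counts, or 0.122, 0 and 0.165%, and the controls had 15, 2 and 22, or 0.0685, 0.0347 and 0.0928%. The groups again overlapped through salubrinal replicate 2, whose 0 of 971 counts allows up to 0.309% by the same limit (exact interval up to 0.379%); 4.76% of tested rows had groups apart in this direction. The log2 fold change of 1.11 ± 0.44 did not pass (edgeR adjusted p = 0.0770), where 23 of 234 rows, 9.83%, passed (6.84% higher and 2.99% lower). Without salubrinal replicate 3 it was 0.19.

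In the 40S files, the salubrinal libraries had 3, 1 and 31 counts, or 0.119, 0.115 and 0.169%, and the controls as titled had 3, 11 and 15, or 0.0526, 0.0517 and 0.0643%. The groups did not overlap, as for 6.31% of tested rows. The low-count filter left the row out of the edgeR fit, in which 18 of 225 rows passed, 8.0% (6.22% higher and 1.78% lower). Fits that kept the row differed in their calls: edgeR gave 1.61 with another filter (adjusted p = 0.00183), 1.49 without rRNA rows (adjusted p = 0.000589), 1.48 in a joint fit of the 24 files (adjusted p = 0.0439) and 1.21 with no filter (adjusted p = 0.606), and DESeq2 gave 1.18 (adjusted p = 0.999). The joint fit counts the 24 files as separate samples, although the files of a replicate are not independent measurements. Its adjusted p therefore cannot decide a call. Where leaving out 1 replicate let the row through the edgeR filter, it did not pass without salubrinal replicate 3 (1.07, adjusted p = 0.504), control replicate 2 (1.34, adjusted p = 0.162) or control replicate 3 (1.72, adjusted p = 0.0696). It passed without salubrinal replicate 1 or 2 or control replicate 1 (adjusted p = 0.0222, 0.00101 and 0.0185).

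The treatment difference on the S100A13 row was not shown to be unequal between fractions. Compared with the polysome files, the difference was 0.26 higher in 80S, 0.19 lower in 60S (-0.19) and 0.23 higher in 40S on the log2 scale, none of it past the edgeR interaction test over the 24 files (adjusted p = 1.00). That test called 0 of 593 rows, with 13 at an unadjusted p under 0.05. With the control 40S files exchanged as above, the 4 files of a replicate differed by no more than counting error. The fractions are therefore not independent measurements of the row. The interaction test counts the 24 files as separate samples, so it cannot decide whether the treatment difference depends on the fraction.

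**Figure D5:**
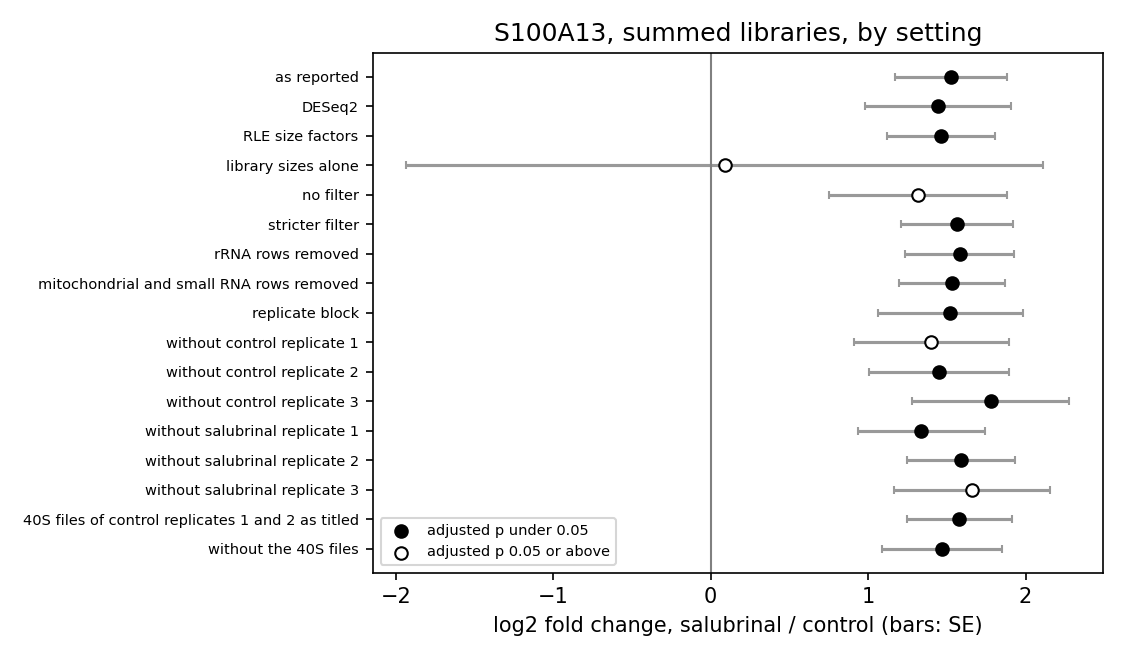
Log2 fold change of S100A13 between salubrinal and control in the summed libraries under each processing setting, with its SE. Filled points have an adjusted p under 0.05. All values are above 0, from 0.091 with library sizes alone to 1.78 without control replicate 3, and the open points are library sizes alone, no filter, and the fits without control replicate 1 or salubrinal replicate 3.

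Set beside the input, the S100A13 row was higher with salubrinal in both kinds of file, by 0.95 on the log2 scale in the single pair of input libraries and by 1.53 in the summed fraction libraries. The references differ between the files, and the difference of these values was not tested. The input ratio and part of the fraction result were known when the family was chosen. The shared direction is therefore a description and supports nothing. With library sizes alone in place of TMM scaling, the summed fraction libraries gave 0.091. Which gene gave the reads on the fraction row was not tested. Over the 6 summed libraries, the tested rows with the most similar profile were VPRBP, AGBL5 and TAF5, with root mean square differences of 0.18, 0.23 and 0.25 in centred log2 CPM among 912 rows compared. Their log2 fold changes were 1.16, 1.20 and 1.12 (edgeR adjusted p = 0.101, 0.0795 and 0.0429), from 57, 699 and 292 counts. The likeness describes 6 libraries that share their scaling factors.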

How the data were processed

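The authors deposited read counts per gene row for 24 fraction and 2 input samples, not normalized. A stranded total RNA kit (TruSeq) was used, per the labels' protocols. The submitters' processing notes name HTSeq 0.5.3p3, DESeq, STAR, FastQC 0.11.5 and the build hg19, and also SAMtools 0.1.19.24. Counts on lines that name no gene entered neither library sizes nor tests, and gene rows made up 4.72 to 5.79% of each fraction file. Samples were grouped by title.

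Treatments were compared per fraction and in summed libraries by the quasi-likelihood test of edgeR 4.0.16 under R 4.3.3 (low counts removed with filterByExpr, robust glmQLFit after TMM scaling, Benjamini-Hochberg over all tested rows, threshold 0.05). SE is the log2 fold change over the normal deviate of its p. DESeq2 1.42.0 was an alternative. Input ratios were taken without a test, after TMM scaling (prior count 2). The edgeR fit was also run on simulated polysome files and on simulated summed libraries formed as titled, with the same dispersion for every row. Those simulated counts do not bear on the reported calls. Rows named were all S100 rows, the 2 highest and 2 lowest of each list among rows with at least 200 counts, and the 3 nearest profiles (small RNA, pseudogene and unnamed rows left out), with every S100 row of at least 50 input counts; genes that overlap S100A13 were counted. The members and lists were chosen with earlier results of these data known. Promoter sequences are RefSeq's.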

Additional observations from a re-analysis of the deposited data

How the results depend on the processing

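In the input, RLE size factors, TMM without the most abundant row and mitochondrial rows, and a prior count of 0.5 kept every member's ratio within its counting interval. Scaling by total counts moved S100a1 to 1.76, S100a6 to 3.20, S100a10 to 1.26, S100a13 to 1.88 and S100b to 1.09, with the median of all rows moved by 0.93.

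For S100A13 in the fraction files, library sizes alone gave -0.070 in polysome, -0.15 in 60S, 0.27 in 80S and 0.091 in the summed libraries, against medians of all tested rows of -1.22, -1.17, -1.25 and -1.30. The row stayed above the median in each. DESeq2, fitted without a low-count filter, gave the row 1.26, 0.71, 1.41 and 1.44 in the same order. The medians of all rows in those fits were 1.09, 1.01, 0.91 and 1.13, so the row lay below the median in 60S. In 80S the call was lost with DESeq2 (1.41, adjusted p = 0.272), without a filter (1.34) and in the joint fit (1.52, adjusted p = 0.0547), and in the summed libraries without a filter (1.32, adjusted p = 0.634), while DESeq2 called the row there (adjusted p = 0.0446). The joint fit counts the fraction files of a replicate as separate samples, so its adjusted p cannot decide a call. In polysome the row passed with the stricter filter (1.29) and without mitochondrial and small RNA rows (1.26). Leaving out 1 replicate gave 0.84 to 1.76 in polysome, 1.44 to 1.96 in 80S, 0.19 to 1.37 in 60S, 1.07 to 1.72 in 40S and 1.34 to 1.78 in the summed libraries. The cause of these changes was not tested.

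With the replicate block the edgeR fold changes were 1.16 in polysome (adjusted p = 0.212), 1.56 in 80S (adjusted p = 0.0435), 0.87 in 60S (adjusted p = 0.499) and 1.52 in the summed libraries (adjusted p = 0.0458), and the largest difference of the treatment effect from that in polysome was 0.26. Whether the numbers pair the samples is not shown. Same-numbered samples correlated at -0.29 to 0.55, and the lowest value, for 40S replicate 2, used the files as titled. Replicate 2 gave 0.17 to 0.37 in the other sets and replicate 3 gave 0.31 to 0.55. Replicate 1 gave -0.04 to 0.02. The block gave 4, 15, 9 and 24 called rows in polysome, 80S, 60S and summed libraries, against 9, 27, 23 and 52 without it. Over the settings other than leaving out a replicate, called rows ranged from 0 to 26, 0 to 38, 0 to 35 and 0 to 91, and on leaving out a replicate from 0 to 39, 0 to 46, 0 to 39 and 8 to 117. The counts of 0 came from edgeR with library sizes alone (0 rows at an unadjusted p under 0.05), from edgeR without a filter (135 to 165 such rows), from DESeq2 in polysome and 60S (57 and 45) and from edgeR without 1 replicate (22 to 50). In 40S the main filter, RLE size factors, library sizes alone, leaving out small RNA and mitochondrial rows, and the block gave no value. With 0 to 31 counts of S100A13 per file, counting error limits every single-file comparison.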
